A study of Mus musculus with 20 samples.

Results

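Chemokines are small secreted proteins that steer the movement of leukocytes, and 10 chemokine ligand genes (Ccl2, Ccl3, Ccl4, Ccl5, Ccl7, Ccl12, Cxcl2, Cxcl10, Cxcl12 and Cxcl16) were followed here in microglial RNA from a mouse model of synucleinopathy. The genes were chosen by name, as 10 of the 24062 genes in the table, with earlier results of these data known. The study sequenced RNA from 20 males, with 6 mThy1-α-synuclein and 4 wild-type animals aged 7 months and 5 of each genotype aged 10 months. The mThy1-α-synuclein mice carry full-length human wild-type α-synuclein, driven by the murine Thy-1 promoter from a copy on the X chromosome, and both genotypes have the B6D2F1/J background. The Thy-1 promoter is mainly active in neurons, whereas the ligands were measured in cells selected as microglia. A sample is the RNA of a single brain, taken whole and without pooling. The labels name IBA1 beads for the selection of microglia and the methods name CD11b beads, and both markers are shared with other myeloid cells.

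The CC ligands bind receptors such as CCR1 and CCR2, which sit on monocytes and other leukocytes. The CXC ligands fall into neutrophil attractants that use CXCR2 (Cxcl2), interferon-inducible T cell attractants that use CXCR3 (Cxcl10), the homeostatic CXCR4 ligand Cxcl12, and the membrane-anchored CXCR6 ligand Cxcl16. In the brain, activated microglia are a known source of Ccl2, Ccl3, Ccl4 and Cxcl10, whereas Cxcl12 comes mainly from endothelial, mural and other non-microglial cells, and many of these genes are switched on through NF-κB, AP-1 or interferon signalling.

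The values are normalized counts, that is, reads counted on a gene divided by a depth factor for each mouse, and between 33404096 and 77806399 reads per mouse were counted on genes. Depth factors were found within each age, and mice of each age were processed together, so a difference in level between ages cannot be told apart from processing. Comparisons were therefore made between genotypes within an age, and then between those genotype effects. Thy1, whose promoter drives the transgene, was higher in every mThy1-α-synuclein mouse than in every wild-type mouse at both ages (919 ± 337 against 39.2 ± 14.4 normalized counts at 7 months and 1423 ± 263 against 17.4 ± 8.80 at 10 months). The 10 microglial markers summed to between 1798570.4 and 2349044 normalized counts over all 20 mice. The 7 neutrophil markers in the table summed to between 65729.9 and 414117, the 7 monocyte markers to between 9742 and 49033, and the 12 markers of T and natural killer cells to between 550.3 and 3361. The neutrophil gene S100a9 reached 138527 normalized counts in a wild-type mouse at 10 months, where the microglial gene Tmem119 ran from 66738 to 70604.5. At 7 months limma called 0 of the 10 microglial markers, with 3 at an unadjusted p under 0.05, none called by edgeR and 1 by DESeq2, and at 10 months 4 of them (Cx3cr1, Itgam, Sall1 and Siglech) were higher. RNA of other cell types was thus present in the samples, and where their markers moved with a ligand their values stand beside it. In bulk RNA, fewer cells of a type and less RNA per cell cannot be told apart. Errors of means are SDs over the mice of a group, and p-values come from limma's moderated test on log2(normalized count + 1), adjusted after Benjamini and Hochberg over all genes tested, and a gene is said to have passed at an adjusted p under 0.05. The SDs describe the spread between mice, and each limma p-value sets a fitted difference against that spread.

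On the mm10 genome, 7 of the 10 genes lie on chromosome 11. Ccl2 (chr11:82035571-82037453), Ccl7 (chr11:82045712-82047525) and Ccl12 (chr11:82101845-82103400) follow one another on the plus strand, with 8258 bases between Ccl2 and Ccl7 and 54319 bases between Ccl7 and Ccl12. Ccl3 (chr11:83647844-83649355, minus strand) and Ccl4 (chr11:83662584-83664683, plus strand) are divergent neighbours 13228 bases apart, and Ccl5 (chr11:83525778-83530518, minus strand) lies 117325 bases from Ccl3. Cxcl16 (chr11:70453983-70459984, minus strand) stands alone on the same chromosome. Cxcl2 (chr5:90903871-90905938, plus strand) and Cxcl10 (chr5:92346638-92348889, minus strand) share chromosome 5, and Cxcl12 (chr6:117168535-117181367, plus strand) is on chromosome 6.

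Upstream stretches of Cxcl10, Cxcl2 and Cxcl12 are shown because these genes had 3 different patterns below: higher at 7 months, lower at 10 months, and lower at 7 months. The RefSeq promoter table (GRCm38.p6) held 5 of the 10 ligands (Ccl3, Ccl12, Cxcl2, Cxcl10 and Cxcl12). The 250 bases before each RefSeq start were searched on both strands for the κB motif, the interferon-stimulated response element (GAAA, any 2 bases, GAAA), the AP-1 motif (TGANTCA) and TATAAA. Capitals mark matches to the κB motif or the interferon element, and each sequence runs 5′ to 3′ on the gene's strand.
Cxcl10, chr5:92348890-92349139, minus strand: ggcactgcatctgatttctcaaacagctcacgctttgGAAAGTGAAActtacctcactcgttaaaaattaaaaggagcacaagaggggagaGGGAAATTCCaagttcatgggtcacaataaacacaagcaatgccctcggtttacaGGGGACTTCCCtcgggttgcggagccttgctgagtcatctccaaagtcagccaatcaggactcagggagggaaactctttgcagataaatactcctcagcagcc
Cxcl2, chr5:90903649-90903870, plus strand: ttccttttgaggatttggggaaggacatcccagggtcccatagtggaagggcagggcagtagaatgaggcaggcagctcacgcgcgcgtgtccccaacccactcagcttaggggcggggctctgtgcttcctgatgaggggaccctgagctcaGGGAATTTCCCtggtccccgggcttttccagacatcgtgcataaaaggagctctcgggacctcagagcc
Cxcl12, chr6:117168285-117168534, plus strand: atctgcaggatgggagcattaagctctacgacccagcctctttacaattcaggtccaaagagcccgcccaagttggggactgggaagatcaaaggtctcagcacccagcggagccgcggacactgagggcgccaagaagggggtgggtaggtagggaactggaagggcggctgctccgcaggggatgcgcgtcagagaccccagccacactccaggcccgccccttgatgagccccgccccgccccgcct
In Cxcl10 the capitals mark an interferon element 213 to 204 bases before the start and κB matches 159 to 150 and 104 to 94 bases before it, where a pair of matches overlap. An AP-1 match, TGAGTCA, lay 74 to 68 bases before the start. In Cxcl2 a pair of overlapping κB matches lay 97 to 87 bases before the RefSeq start, and the last 28 of its 250 bases are not printed because a longer transcript model covers them. Cxcl12 and Ccl3 held none of the 4 motifs, and Ccl12 held only TATAAA, 31 to 26 bases before its start. Of 32851 mouse promoters of the same length, 7.25% held the κB motif, 2.98% the interferon element, 6.75% the AP-1 motif and 12.4% TATAAA. A match describes letters in this window and is not evidence of binding.

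At 7 months 3 of the 10 ligands passed the test, where 4.93% of all 13887 genes tested did. Of these, 1 ligand (Cxcl10) was higher in mThy1-α-synuclein mice, as were 2.23% of all genes, and 2 (Ccl5 and Cxcl12) were lower, as were 2.7% of all genes. At 10 months 4 of the 10 passed, where 7.67% of 13627 genes did. All 4 (Ccl2, Ccl5, Ccl7 and Cxcl2) were lower, as were 3.79% of all genes, and no ligand was higher by limma, edgeR or DESeq2, where 3.88% of all genes were by limma. An unadjusted p under 0.05 was seen for 5 ligands at each age, and for 2962 of all 13887 genes at 7 months and 3209 of all 13627 at 10 months. The fitted log2 fold change was above 0 for 7 of the 10 ligands at 7 months, with a median of 0.33, and below 0 for 8 of the 10 at 10 months, with a median of -0.35. Over all genes tested the medians were 0.00093 and -0.0026. Ccl5 was the one ligand that passed the test at both ages.

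**Figure D1:**
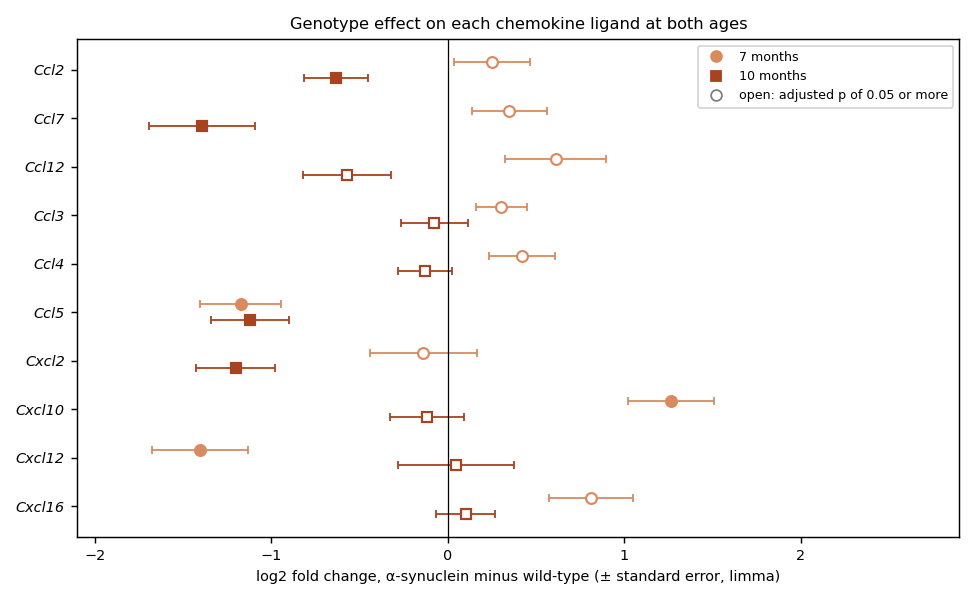
Log2 fold change (mThy1-α-synuclein minus wild-type, x axis, ± standard error) of each of the 10 ligands (y axis) at 7 months (circles) and 10 months (squares), with filled symbols for an adjusted p under 0.05. Ccl5 lies near -1.17 and -1.12 at the 2 ages, whereas Ccl7 moves from 0.35 to -1.39 and Cxcl10 from 1.26 to -0.12.

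Ccl2, Ccl7 and Ccl12 encode ligands of CCR2, the receptor that brings monocytes out of the blood. Ccl2 had 374, 349, 237, 339 and 501 normalized counts in the 5 wild-type mice at 10 months. In the 5 mThy1-α-synuclein mice of that age it had 246, 209, 190.5, 286 and 208. The means were 360.0 ± 94.5 and 228 ± 38.4, and 3 of the 5 mThy1-α-synuclein mice lay below every wild-type mouse, so the groups overlapped. Ccl2 was lower by this test (log2 fold change -0.63, standard error 0.18, limma adjusted p = 0.0466). The call was lost in 8 of the 10 fits that left out a single mouse, with an adjusted p of up to 0.109 without mThy1-α-synuclein replicate 3. At 7 months the wild-type mice had 210.3, 223, 217 and 275 normalized counts of Ccl2 and the mThy1-α-synuclein mice between 169.9 and 406, with a median of 271. These groups overlapped, with transgenic mice on both sides of the wild-type range (0.25, adjusted p = 0.540).

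Ccl7, the neighbour of Ccl2, encodes a ligand of CCR1 and CCR3 as well as CCR2. At 10 months the wild-type mice had 162, 169, 131, 161 and 288 normalized counts and the mThy1-α-synuclein mice 41.8, 76.6, 82.4, 40.9 and 116. Every mThy1-α-synuclein mouse lay below every wild-type mouse, and wild-type replicate 5 stood above the rest of its group. The log2 fold change was -1.39 (standard error 0.30, 95% interval -2.03 to -0.76, limma adjusted p = 0.0136), or 2.63-fold lower. At 7 months the wild-type mice had 92.6, 90.5, 77.9 and 102 normalized counts, and the mThy1-α-synuclein mice ran from 86 to 149 with a median of 119.8. Of the 6 mThy1-α-synuclein mice, 5 lay above every wild-type mouse, but the difference did not pass the test (0.35, standard error 0.21, adjusted p = 0.367).

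Ccl12, a mouse CCR2 ligand with no direct human counterpart, overlapped between the genotypes at 10 months. The wild-type mice had 3446, 2188, 1357, 1796 and 2032 normalized counts and the mThy1-α-synuclein mice 1333, 2107, 1059, 1299.6 and 1326. Of these, 4 mThy1-α-synuclein mice lay below every wild-type mouse and replicate 2 lay within their range, and the difference missed the cutoff (-0.57, 95% interval -1.13 to -0.01, adjusted p = 0.201). At 7 months the wild-type mice had between 832 and 1203 and the mThy1-α-synuclein mice between 1051 and 2815, with a median of 1267 (0.61, adjusted p = 0.257). Replicates 1 and 3 of the mThy1-α-synuclein group, at 2815 and 2133, were above the wild-type range by the most.

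Markers of other myeloid cells moved with the lower CCR2 ligands at 10 months. All 7 monocyte markers had a lower mean log2 level in mThy1-α-synuclein mice at that age and 4 of them passed the test, among them Chil3, Plac8 and F10. Their sums ran from 10909 to 22497 normalized counts in mThy1-α-synuclein and from 23359 to 49033 in wild-type mice, without overlap. The 8 markers of border macrophages, the macrophages of meninges and vessels, summed to between 19568 and 25096 against 26491 to 36610.5, and 4 of them (Mrc1, Pf4, F13a1 and Cbr2) were lower. At 7 months limma called none of the 7 monocyte markers (0 with an unadjusted p under 0.05) and none of the 8 border macrophage markers (1 with an unadjusted p under 0.05), and their sums overlapped between genotypes. The monocyte sums varied widely between mice of that age. They were 9742 to 10100 normalized counts in mThy1-α-synuclein replicates 1 to 3 and 27167 to 38876 in replicates 4 to 6. Wild-type mice had 12108 in replicate 4 and 26012 to 34199 in replicates 1 to 3. edgeR called none of either list at that age, and DESeq2 called 1 border macrophage marker. All 7 monocyte markers still had fitted values below 0 at 7 months, with a median log2 fold change of -0.45 against -1.29 at 10 months. Of the 8 border macrophage markers, 5 were above 0 and 3 below at 7 months. For the difference between ages, 0 of the 7 monocyte markers had an unadjusted p under 0.05 in limma. Of the 8 border macrophage markers 4 did, and Clec10a passed. The defining monocyte markers Ly6c2 and Ccr2 were above 0 in every mouse. The part of these cells in the ligand levels was not tested.

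**Figure D2:**
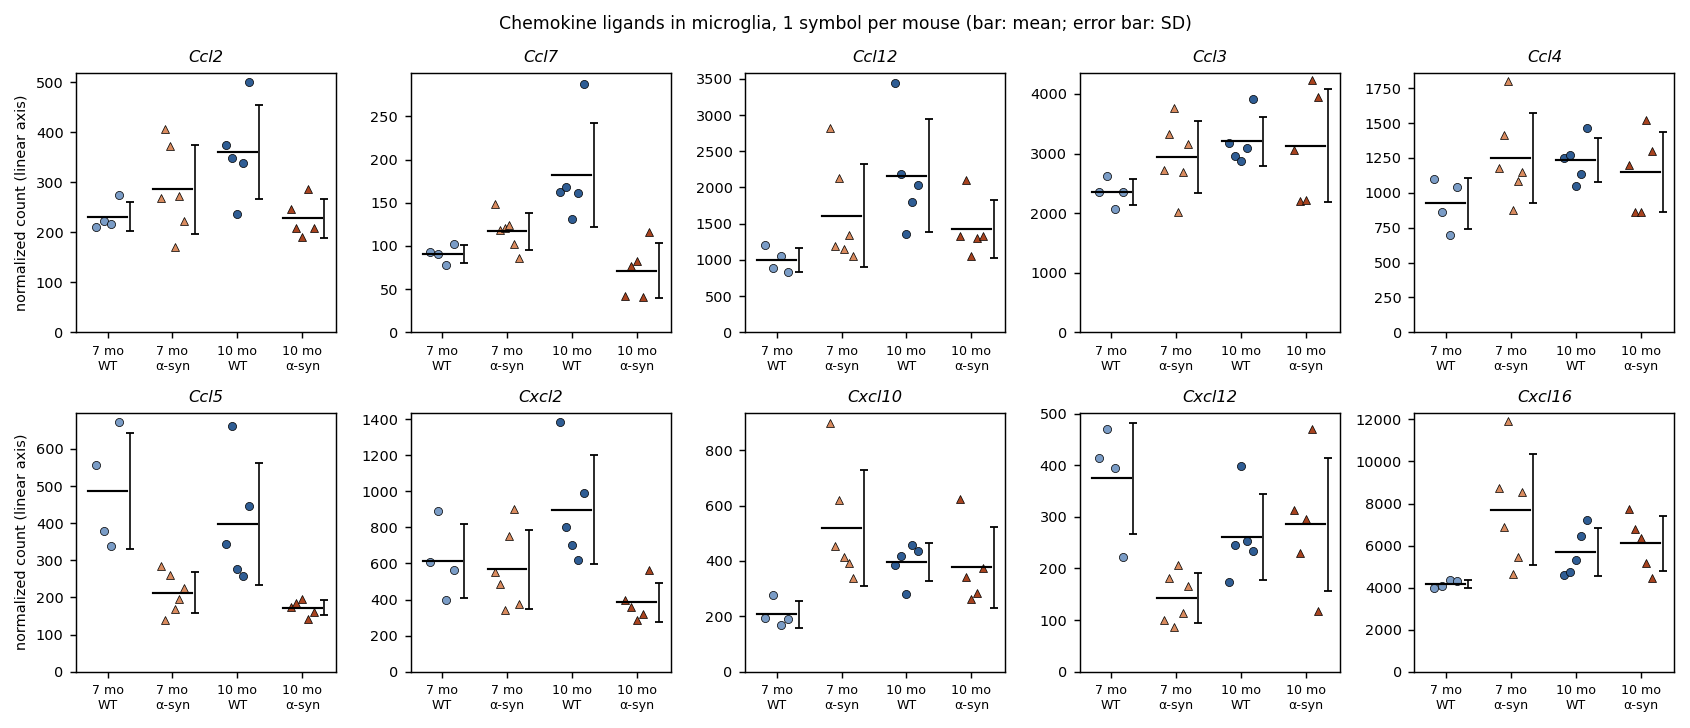
Normalized counts (linear y axes, each with its own scale) of the 10 ligands in all 20 mice, by age and genotype (circles: wild-type, WT; triangles: mThy1-α-synuclein, α-syn), with bars for group means and error bars for SDs. Ccl5 triangles lie below the circles at both ages, Cxcl10 and Cxcl16 triangles lie above the circles at 7 months, and Ccl7 and Cxcl2 triangles lie below the circles at 10 months.

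Ccl3, Ccl4 and Ccl5 encode inflammatory CC chemokines, and Ccl3 and Ccl5 bind CCR1. Ccl3 ran from 2076 to 2622 normalized counts in the 4 wild-type and from 2027 to 3768 in the 6 mThy1-α-synuclein mice at 7 months. Of the latter, 5 lay above every wild-type mouse and replicate 4 lay below them all, and the difference did not pass the test (log2 fold change 0.30, adjusted p = 0.238). Without that mouse Ccl3 passed (0.41, limma adjusted p = 0.0344). Over all limma fits that left out 1 mouse, the adjusted p of Ccl3 ran from 0.0344 to 0.463. At 10 months Ccl3 had 3134 ± 950.0 against 3205 ± 415 normalized counts, with mThy1-α-synuclein mice on both sides of the wild-type range (-0.08, 95% interval -0.50 to 0.34, adjusted p = 0.848). Ccl4, the neighbour of Ccl3, had 1250.1 ± 321 against 925 ± 184 normalized counts at 7 months (0.42, adjusted p = 0.219) and 1149 ± 285 against 1233 ± 157 at 10 months (-0.13, adjusted p = 0.661).

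Ccl5, also known as RANTES and made largely by T and natural killer cells in other tissues, was lower in the mThy1-α-synuclein mice at both ages. At 7 months it had 557, 379, 338 and 672 normalized counts in the wild-type mice and from 139.9 to 286, with a median of 211, in the mThy1-α-synuclein mice. At 10 months it had 345, 661, 277, 258 and 447 in the wild-type and 174, 185, 197, 143 and 162 in the mThy1-α-synuclein mice. The genotypes did not overlap at either age, and the wild-type mice spread more widely, with a coefficient of variation of 41.5% against 12.1% at 10 months. The log2 fold change was -1.17 (standard error 0.23, limma adjusted p = 0.00815) at 7 months and -1.12 (0.22, adjusted p = 0.00959) at 10 months. The difference between these effects was 0.05, with a 95% interval from -0.65 to 0.75. An age difference smaller than that range could not be seen.

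Markers of T and natural killer cells moved with Ccl5 at both ages. Of the 12 genes in that list 9 were tested, all 9 had fitted values below 0 at both ages, and 6 passed at 7 months and 7 at 10 months, among them the granzymes Gzma and Gzmb and the natural killer receptor Ncr1. The summed level of the 12 genes was 550.3 to 1314 normalized counts in mThy1-α-synuclein against 1790.3 to 3361 in wild-type mice at 7 months, and 599.7 to 1001 against 1382 to 3169 at 10 months, with no overlap at either age. The T cell receptor components Cd3e and Cd3g were at or near 0 in many mice, with at most 26.0 and 21.3 normalized counts, whereas Cd3d ran from 22.4 to 364. The part of these cells in Ccl5 was not tested.

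Cxcl2, a neutrophil attractant that acts through CXCR2, was lower in mThy1-α-synuclein mice at 10 months. Wild-type mice had 1382, 802, 700.2, 619.6 and 991 normalized counts and mThy1-α-synuclein mice 396, 361, 286, 319.5 and 562. Every mThy1-α-synuclein mouse lay below every wild-type mouse, and the log2 fold change was -1.20 (standard error 0.23, limma adjusted p = 0.0103), or 2.30-fold lower. At 7 months Cxcl2 had 608, 889, 396 and 562 in wild-type mice and from 341 to 900.4, with a median of 518, in mThy1-α-synuclein mice. The ranges were nearly the same and the interval of the log2 fold change reached from -0.81 to 0.53 (-0.14, adjusted p = 0.832). Of the 7 neutrophil markers tested, all had fitted values below 0 at 10 months and 2 passed the test (Retnlg and Csf3r). In limma 5 had an unadjusted p under 0.05 at that age, and edgeR called 3 lower and DESeq2 5. The sums of the 7 markers at that age overlapped, from 86703 to 196448 normalized counts in mThy1-α-synuclein and from 167906 to 373804 in wild-type mice. At 7 months 6 of the 7 also had fitted values below 0, with a median log2 fold change of -0.50 against -1.08 at 10 months. None passed at 7 months, and 0 had an unadjusted p under 0.05 in limma. The neutrophil sums at 7 months ran from 65730 to 414117 normalized counts in mThy1-α-synuclein and from 92042 to 277673 in wild-type mice. The part of neutrophils in Cxcl2 was not tested.

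Cxcl10, an interferon-inducible ligand of CXCR3, was higher in mThy1-α-synuclein mice at 7 months. The wild-type mice had 193, 279, 169 and 190.5 normalized counts, and the mThy1-α-synuclein mice ran from 339 to 899.5 with a median of 435. The groups did not overlap, and the gap lay between 279 and 339. The log2 fold change was 1.26 (standard error 0.25, limma adjusted p = 0.00967). At 10 months the wild-type mice had 387, 417, 281, 457 and 436 and the mThy1-α-synuclein mice 625.5, 341, 262, 284 and 374. The highest and the lowest mouse of that age were both mThy1-α-synuclein mice, and no difference passed the test (-0.12, 95% interval -0.57 to 0.34, adjusted p = 0.782).

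Cxcl12, also called stromal cell-derived factor, holds CXCR4-bearing cells in place in development and in the adult. The wild-type mice had 414, 470.0, 394 and 221 normalized counts at 7 months, and the mThy1-α-synuclein mice ran from 86.5 to 206 with a median of 139.9. The groups did not overlap, although wild-type replicate 4 lay close to the highest mThy1-α-synuclein mouse, and the log2 fold change was -1.41 (standard error 0.27, limma adjusted p = 0.00787). At 10 months the wild-type mice had 174, 245, 399, 254 and 234 and the mThy1-α-synuclein mice 313, 229.8, 296, 471 and 117. The mThy1-α-synuclein mice then held both extremes, and the interval of the log2 fold change was wide (0.04, 95% interval -0.67 to 0.76, adjusted p = 0.954).

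Endothelial, neuronal, oligodendrocyte and most astrocyte markers had fitted values below 0, as Cxcl12 did, at 7 months. Of 11 endothelial markers 10 had fitted values below 0 and 2 (Cldn5 and Pecam1) passed, and their sums ran from 3984 to 5828 normalized counts in mThy1-α-synuclein and from 6249.6 to 7556 in wild-type mice, without overlap. Of 14 neuronal markers 7 were lower (sums of 790.1 to 1171 against 1535 to 2391), and of 8 oligodendrocyte markers 3 were lower (7897 to 10323 against 12895 to 18432). Of 12 astrocyte markers 10 had fitted values below 0, 6 passed as lower and Slc1a3 passed as higher, with sums that overlapped. The median log2 fold change was -1.36 for the astrocyte list. It was -0.60 for the endothelial, -1.48 for the neuronal and -1.04 for the oligodendrocyte list. Of 9 mural cell markers 8 were tested, Vtn alone was lower, and the sums overlapped. limma, edgeR and DESeq2 called none of the B cell markers (4 tested at 7 months and 3 at 10 months) and none of the fibroblast markers (3 and 4 tested), where 1 B cell marker had an unadjusted p under 0.05 at 10 months. At 10 months limma, edgeR and DESeq2 each called none of the 11 endothelial markers, 0 had an unadjusted p under 0.05, and the sums overlapped. The part of these cells in Cxcl12 was not tested.

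**Figure D3:**
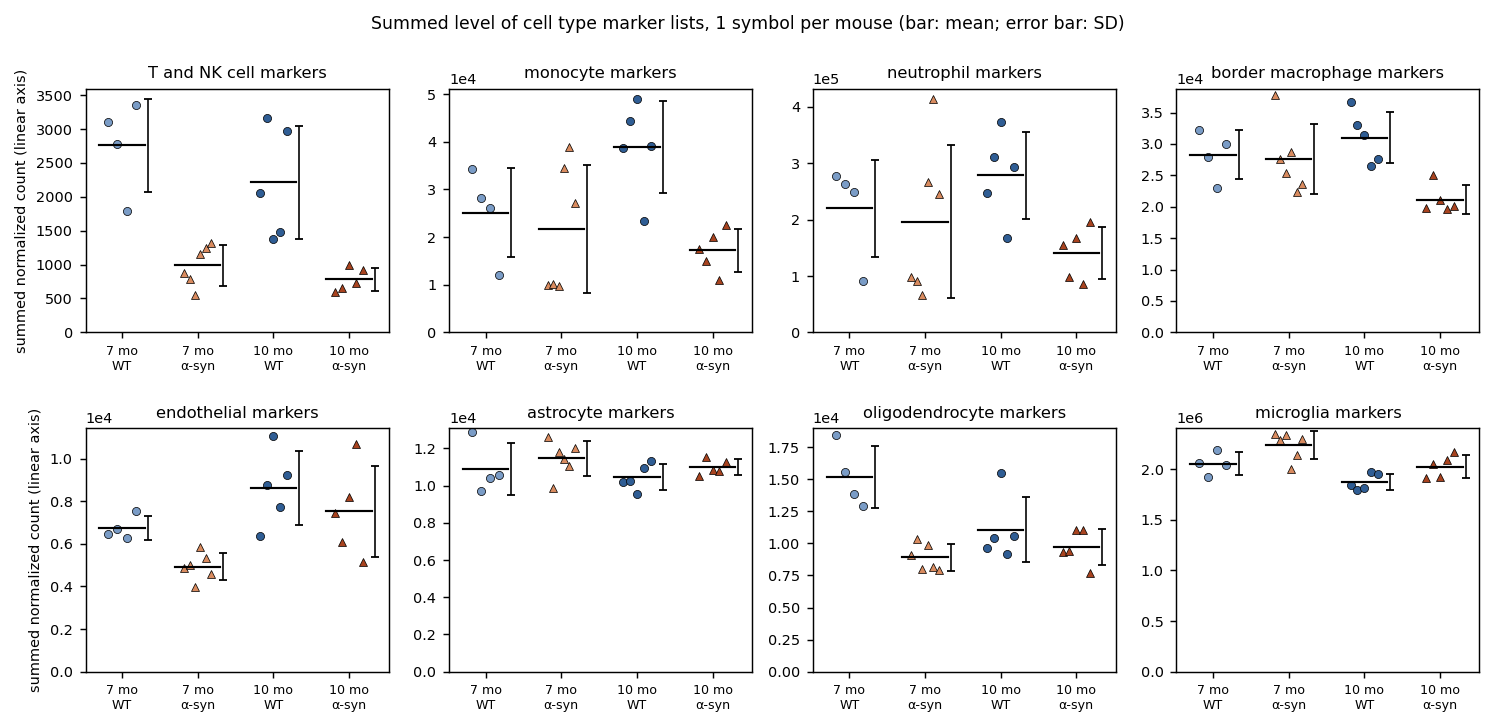
Summed normalized counts of 8 cell type marker lists (linear y axes, some in powers of 10 as printed above the axis) in each of the 20 mice by age and genotype, with bars for means and error bars for SDs. The T and natural killer cell sums separate the genotypes at both ages (at most 1314 against at least 1790.3 at 7 months), the endothelial and oligodendrocyte sums at 7 months, and the monocyte and border macrophage sums at 10 months.

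Cxcl16 encodes a ligand that is held on the cell surface by a stalk and shed by ADAM proteases. It had 3998, 4054, 4384 and 4319 normalized counts in wild-type mice at 7 months, the tightest spread of any ligand in any group with a coefficient of variation of 4.56%. The mThy1-α-synuclein mice ran from 4657 to 11932 with a median of 7703, each above every wild-type mouse. Despite this separation the test was missed (log2 fold change 0.81, standard error 0.24, limma adjusted p = 0.0896). It was passed without mThy1-α-synuclein replicate 4, the lowest of its group (0.94, adjusted p = 0.0188). Over all limma fits that left out 1 mouse, the adjusted p ran from 0.0188 to 0.204. At 10 months the groups overlapped, at 6103 ± 1306 against 5674 ± 1146 (0.10, adjusted p = 0.768). At 7 months 4 of the 10 ligands (Ccl5, Cxcl10, Cxcl12 and Cxcl16) had no overlap between the genotypes, as did 7.53% of all genes tested. At 10 months 3 ligands (Ccl5, Ccl7 and Cxcl2) had none, as did 7.27% of all genes.

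The genotype effect itself was compared between the ages in a single fit of all 20 mice. It differed for 2 of the 10 ligands, Ccl7 and Cxcl10, where 6.36% of 14457 genes did. Both were negative, as were 2.62% of all genes, and no ligand passed in the positive direction by limma, where 3.74% of all genes did. edgeR and DESeq2 each called 1 ligand, Cxcl12, in that direction, and 8 ligands had an unadjusted p under 0.05 in limma, as did 3171 of all 14457 genes. For Ccl7 the effect at 10 months was 1.74 lower on the log2 scale than at 7 months (-1.74, standard error 0.37, limma adjusted p = 0.00736), and for Cxcl10 it was 1.38 lower (-1.38, 0.35, adjusted p = 0.0213). Ccl7 passed the test within 10 months and Cxcl10 within 7 months. The contrast for Cxcl12 ran the other way and missed the cutoff (1.45, 0.46, adjusted p = 0.0617), as did those for Ccl2 (-0.88, adjusted p = 0.0719), Ccl12 (-1.18, adjusted p = 0.0876) and Cxcl2 (-1.06, adjusted p = 0.128). The difference between ages was below 0 for 8 of the 10 ligands, with a median of -0.80, against a median of 0.00080 over all genes. These 10 differences share the same 20 mice.

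Levels of different ligands were compared per length, as RPKM, that is, reads per kilobase of exon at a common library size. On this scale Ccl3 had the highest mean in all 4 groups, from 59.1 ± 6.98 in the wild-type mice at 7 months to 87.7 ± 10.1 in those at 10 months. Ccl12, Cxcl16 and Ccl4 followed in that order in every group, and Cxcl12 had the lowest mean in every group, from 0.384 ± 0.134 in the mThy1-α-synuclein mice at 7 months to 1.00 ± 0.287 in the wild-type mice of that age. The length was the union of annotated exons over all transcripts of a gene, 7160 bases for Cxcl12 and 801 for Ccl7. Before division by length, Cxcl12 had a higher mean than Ccl7 in every group. In wild-type mice at 7 months these means were 375 against 90.8 normalized counts. The place of Cxcl12 below Ccl7 therefore depends on the length used. Neighbours in the order mostly overlapped. The step from Ccl4 to Ccl5 was free of overlap in 3 of the 4 groups, for example 36.5 ± 9.12 against 6.79 ± 0.854 in the mThy1-α-synuclein mice at 10 months, and the step from Ccl7 to Cxcl12 was so in 3 as well. Among wild-type mice at 7 months, Ccl3 also stood above Ccl12 (35.5 ± 5.52), Ccl5 above Cxcl2 and Ccl2 above Cxcl10 without overlap, and in the mThy1-α-synuclein mice at 10 months Cxcl2 stood so above Ccl7. Between Ccl5 and Ccl7 the order was Ccl2, Cxcl10 and Cxcl2 in both mThy1-α-synuclein groups and Cxcl2, Ccl2 and Cxcl10 in both wild-type groups, although most of these neighbours overlapped.

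Some ligands share sequence or exons with another gene, and the strand setting of the counting was not stated, so reads of overlapping genes on opposite strands may not be separable. Of the 75-base stretches in Cxcl16 transcripts, 15.4% also occur in Zmynd15, which overlaps it on the other strand and had 119 to 283 normalized counts. For Cxcl10 the share was 2.47%, with the overlapping gene Art3 at 15.9 to 72.8, and for Cxcl2 it was 4.57%, with its neighbour Cxcl3 at 0 to 28.1. These partner genes were below the ligands in level, and neither Zmynd15 nor Art3 passed the test at either age. Art3 was nearest to it at 7 months (0.92, unadjusted p = 0.0233, limma adjusted p = 0.159), in the same direction as Cxcl10. The other 7 ligands shared no stretch of that length with another gene, although the span of Gm17268 overlaps Ccl2 on the other strand.

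The receptors for these ligands were examined as a fixed family list. Of 24 receptor genes 17 were tested at 7 months, where 2 were higher and 2 lower, and 19 at 10 months, where 3 were higher and 4 lower. Over all genes tested, 2.23% were higher and 2.7% lower at 7 months, and 3.88% and 3.79% at 10 months. At 10 months edgeR called 1 receptor higher and 4 lower, and DESeq2 called 3 and 6. Ccrl2, an atypical receptor that binds chemerin and does not signal, was lower at both ages without overlap (-1.10, limma adjusted p = 0.000945, and -0.62, adjusted p = 0.00665). Cxcr2, the receptor for Cxcl2 on neutrophils, was lower at 10 months (-1.48, adjusted p = 0.0483), as was Cxcr4, the receptor for Cxcl12 (-0.999, adjusted p = 0.0152). The genotype effect differed between ages for 4 of 21 receptors tested, 1 (Ccr6) in the positive and 3, among them Ccr1 and Cxcr1, in the negative direction. Of all genes, 3.74% passed in the positive and 2.62% in the negative direction. Of 30 other ligand genes 16 were tested at each age. At 7 months limma and edgeR called none of them, where 3 had an unadjusted p under 0.05 and DESeq2 called 1. The 2 that passed at 10 months were Cxcl1, another CXCR2 ligand, and the platelet and macrophage chemokine Pf4, both lower (-1.14, adjusted p = 0.0300, and -0.53, adjusted p = 0.0373).

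Genes that act on chemokines or upstream of them were read from further fixed lists. Adam17, a protease that sheds membrane-bound ligands, was higher at 7 months (0.31, limma adjusted p = 0.0148), and its effect differed between ages (-0.34, adjusted p = 0.0243). It was the one gene of 8 processing enzymes that passed at 7 months, and Mmp2 was the one that passed at 10 months (0.79, adjusted p = 0.0470). Of 12 NF-κB subunits and feedback inhibitors limma called none at 7 months, where 2 had an unadjusted p under 0.05 and edgeR and DESeq2 called none, and at 10 months limma called the inhibitor Tnip1 lower (-0.27, adjusted p = 0.0483). At that age 10 of the 12 had fitted values below 0, edgeR called 1 lower and DESeq2 3. The 23 interferon-stimulated genes had a median log2 fold change of 0.19 at 7 months, with Ifit3 higher (0.50, adjusted p = 0.0143). At 10 months their median was -0.75, 21 of the 23 were below 0, and Isg15, Bst2 and Ddx58 were lower. The difference between ages was below 0 for all 23 and passed for 5 (Ifit1, Ifit3, Isg15, Usp18 and Ddx58).

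The cytokine Il1b, which is regulated by NF-κB as Cxcl2 is, was lower at 10 months, at 8547 ± 1845 against 23389 ± 8637 normalized counts without overlap (log2 fold change -1.40, limma adjusted p = 0.0222). At 7 months its fitted value was also below 0 but did not pass (-0.64, limma adjusted p = 0.321). The difference of the Il1b effect between ages did not pass either (-0.76, limma adjusted p = 0.349). Tnf, Il1a and Il6 did not pass in limma at either age. Il1a came closest at 7 months (0.32, unadjusted p = 0.00517, limma adjusted p = 0.0748), where DESeq2 called 1 of the 4 cytokines. Of 16 immediate-early and dissociation genes, which can be induced while tissue is taken apart, limma and edgeR called none at 7 months, where 4 had an unadjusted p under 0.05 and DESeq2 called 1. At 10 months Rgs1 was higher and Fosb lower, with a median of -0.21 over the 16 genes. At that age 12 of the 16 had fitted values below 0. In limma 9 had an unadjusted p under 0.05, as did 3209 of all 13627 genes. DESeq2 called 1 of the 16 higher and 3 lower. The part of dissociation in the ligand levels was not tested.

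Mouse-to-mouse variation was compared after the group mean had been taken from each log2 value, over 20 mice and 45 pairs of ligands. Ccl3 and Ccl4, the divergent neighbours, varied together most closely (Pearson r = 0.87, permutation p = 4e-05, adjusted p = 0.0018; Spearman rho = 0.86, permutation p = 5e-05, adjusted p = 0.00225). Without the 2 mice farthest from the median of Ccl3 the correlation was 0.82, and within ages it was 0.82 at 7 and 0.96 at 10 months. Ccl2 varied with Ccl4 (r = 0.75, permutation p = 0.00028, adjusted p = 0.0063) and with Ccl3 (r = 0.66, permutation p = 0.0019, adjusted p = 0.0285). Their rank correlations of 0.68 and 0.57 did not pass after adjustment (permutation p = 0.00353 and 0.0191, adjusted p = 0.0794 and 0.181). Without the 2 farthest mice r was 0.70 and 0.56, and within ages it was 0.76 and 0.73 for the first pair and 0.76 and 0.60 for the second. The other 42 pairs did not pass, among them Ccl2 with its close neighbour Ccl7 (r = 0.10), and 28 of the 45 correlations were positive.

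**Figure D4:**
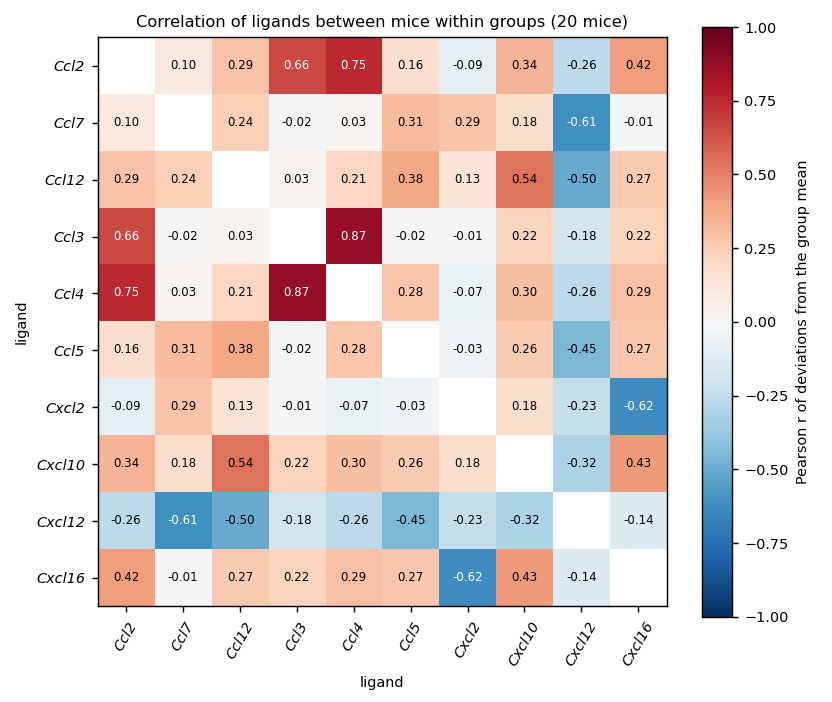
Pearson correlation (colour scale and printed value) of log2 deviations from the group mean for each pair of the 10 ligands over 20 mice. The block of Ccl2, Ccl3 and Ccl4 (0.66 to 0.87) stands out, and Cxcl12 is negatively correlated with each of the other ligands.

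For each ligand the genes with the most similar deviations over the 20 mice were named as a description, without a test, from 14457 genes that share the same libraries. Ccl3 was closest to Erlec1 (r = 0.88) and then to Ccl4 (0.87), and Ccl4 to Ccl3 and Fkbp14 (0.87). Cxcl2 was closest to Nfkbiz (0.83), a nuclear inhibitor-like protein of the NF-κB family, and then to Zscan29 (0.82). Cxcl12 was closest to Egfl7 (0.88), a gene on the endothelial marker list, and to Spock2 (0.87). Ccl12 was closest to Sdc4 (0.86) and Ms4a6d (0.84), Cxcl16 to Cd5 (0.87) and Ifi27 (0.84), and Cxcl10 to Zfp949 (0.86) and Zfp429 (0.84). The closest genes to Ccl2 were Pex13 (0.78) and Zdhhc20 (0.76), to Ccl5 Kcnk5 (0.74) and Gm11127 (0.73), and to Ccl7 Gm10578 (0.89) and Rnf8 (0.71). Kcnk5 and Gm10578 were near the floor, at 0 to 19.7 and 0 to 18.1 normalized counts, and were too low to be tested within either age.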

How the data were processed

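RNA was measured in 20 mice in 4 groups, given by the sample labels. The deposited signal values are read counts per gene, scaled by the authors with DESeq2 size factors that were found separately at each age. According to the methods and the submitters' processing notes, reads were trimmed with Trim Galore 0.6.7, mapped to mm10 with HISAT2 2.2.1, counted with featureCounts and normalized with DESeq2 1.44.0, and 1 sequencing run held all samples. The annotation and strand setting of the counting are not given in the sources used here. Multiplying by the size factor gave whole reads (within 0.05) for 100% of values, and these recovered reads served the count tests. Averaged over genes, counting noise was small beside the spread between mice. The mean chi-square per gene was at least 24.7 for every pair within a group. Genes with many reads weigh most in this average. It does not describe ligands with few reads, such as Ccl7 with 66 to 103 reads in wild-type mice at 7 months. The share of counting noise in the spread of single ligands was not tested.

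Genes that reached 10 in 4 mice (7 months), 5 mice (10 months) or 4 of 20 mice (interaction) were tested on log2(value + 1) with limma 3.58.1 in R 4.3.3, fitting a trend of variance on level robustly, after the method was tested on simulated data. The members and gene lists were chosen with earlier results of these data known. Named were the 10 ligands, called ligands and receptors of the family, the 2 called genes with the smallest p of each pathway list at each age, the 2 genes most like each ligand, the first 3 genes of each cell type list, 4 cytokines and Thy1. Some genes that this rule names are not reported here. Genes that share sequence with a ligand, and list members named because few were called, were added after their values were seen. Correlations used 100000 permutations of mice within groups. Levels between genes used exon lengths of the GENCODE M21 annotation. Alternatives were edgeR 4.0.16, DESeq2 1.42.0, TMM scaling of log2 CPM, pseudocounts of 0.5 and 5, no filter or a filter at 50, no trend, a replicate block, size factors over all 20 mice and leaving out each mouse. Methylation was not analysed here.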

Additional observations from a re-analysis of the deposited data

Results flagged for a closer look

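Of 40 group checks, 1 for each ligand in each group, 3 found a mouse that stood apart from the rest of its group, and chance alone gives about 1 in 20. Wild-type replicate 5 at 10 months was the highest of its group for Ccl3, at 3918 normalized counts, and for Ccl7, at 288. Without that mouse the genotype effect on Ccl7 at 10 months still passed the test. The mThy1-α-synuclein replicate 2 at 10 months was the highest of its group for Ccl12, at 2107 normalized counts, where the other mice of the group lay between 1059 and 1333.

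The genotype effect differed between ages by a test of the difference itself for Ccl7, where the effect at 10 months minus that at 7 months was -1.74 on the log2 scale, and for Cxcl10, where it was -1.38.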

How the results depend on the processing

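The calls of Ccl5 and Cxcl10 at 7 months, of Ccl5, Ccl7 and Cxcl2 at 10 months and of Ccl7 and Cxcl10 in the difference between ages held under every alternative run, with highest adjusted p of 0.0467, 0.0487, 0.0371, 0.0426, 0.0318, 0.0173 and 0.0493. Mice that share a replicate number did not deviate together (correlations of -0.127 to 0.026 at 7 months and -0.026 to 0.046 at 10 months, where 0 and 1 mThy1-α-synuclein mice correlated best with their own number). With the replicate block, 414 genes at 7 months, 916 at 10 months and 482 in the interaction passed. Under that block Cxcl12 at 7 months was no longer called (log2 fold change -1.42, adjusted p = 0.0609), Ccl12 at 7 months was (0.0210), and 4 ligands differed between ages, Ccl12 (0.0203) and Cxcl2 (0.0444) with the others. The cause was not tested for any change listed here.

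Numbers of genes called at 7 months were 684 in the reported fit, 1158 with DESeq2, 408 without trend and robust estimation, and from 282 (wild-type replicate 1 left out) up to 858 (mThy1-α-synuclein replicate 4 left out) with 1 mouse fewer. At 10 months they were 1045, 1694, 565 and 497 (without wild-type replicate 2) to 1235 (without wild-type replicate 4), and in the interaction 920, with 618 to 1096 when 1 mouse was left out. Leaving out 1 mouse gave 3 to 5 called ligands at 7 months, 3 to 4 at 10 months and 2 to 4 in the interaction, where DESeq2 called 5.

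Ccl2 at 10 months lost its call without a filter (0.0615), without trend and robust estimation (0.0858), and without mThy1-α-synuclein replicates 1 (0.0721), 2 (0.0916), 3 (0.109) or 5 (0.0957) or wild-type replicates 1 (0.0943), 2 (0.0922), 4 (0.0591) or 5 (0.107). Cxcl16 at 7 months passed with DESeq2 (0.0109). In the interaction Cxcl12 passed with edgeR (0.0441), with DESeq2 (0.0071), and without mThy1-α-synuclein replicate 4 (0.0405) or wild-type replicate 4 (0.0342) at 7 months or mThy1-α-synuclein replicate 5 (0.0119) or wild-type replicate 3 (0.0349) at 10 months. Ccl2 passed there with DESeq2 (0.0240) and without mThy1-α-synuclein replicate 4 at 7 months (0.0239) or wild-type replicate 3 at 10 months (0.0312), and Ccl12 with DESeq2 (0.0276).

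Signs turned only where no test was passed. When 1 mouse was left out, Cxcl2 at 7 months ranged from -0.33 to 0.057 (above 0 without wild-type replicate 2) and Ccl3 at 10 months from -0.20 to 0.036 (above 0 without mThy1-α-synuclein replicates 2 or 3). Cxcl12 at 10 months ranged from -0.17 to 0.33 (below 0 without mThy1-α-synuclein replicates 1, 3 or 4 or wild-type replicate 1). The Ccl5 difference between ages was -0.012 with edgeR and -0.0082 with DESeq2 and ranged from -0.12 to 0.26 when 1 mouse was left out (below 0 in 6 such fits).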
